A study of Saccharomyces cerevisiae with 12 samples.

Results

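The expression of all 6 arrays of low-shear modeled microgravity (LSMMG) was compared with that of all 6 control arrays, with the generation of harvest as a covariate, to find the response of Saccharomyces cerevisiae that was common to both times. The arrays were chosen by their sample titles, and the comparison used all 12 of the 12 arrays of the study: 3 after 5 generations in LSMMG (SMG 5), 3 after 25 generations in LSMMG (SMG 25) and 6 control arrays (Ctrl), of which the titles place 3 at 5 and 3 at 25 generations. All cultures were of strain BY4743, a diploid that lacks HIS3, LEU2 and URA3 and carries 1 intact copy each of LYS2 and MET17, grown in rich YPD medium at 30°C in HARV bioreactors. A HARV is a rotating vessel filled with medium without air bubbles. Placed vertically it turns cells about a horizontal axis and keeps them suspended with little shear, which is the LSMMG condition, and laid horizontally it served as the control. Both conditions shared medium, temperature and vessel, and the cultures were held in mid-log phase by repeated dilution, so the comparison is between vessel positions on the ground and not between gravity levels. The growth description attached to every sample names 5 generations only, and the published text divides the control arrays unevenly between the generations, with more of them early than late. The titles were followed, so the generation of some control arrays is uncertain, which touches the values at each time and their difference. Without generation as a term, 1249 probe sets were called in place of 1257. The sources do not say which arrays came from the same diluted culture, so p-values measure the spread between arrays, which may be in part technical.

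Budding yeast tunes its transcripts to its growth rate and surroundings. Cells that grow fast on glucose devote much of their transcription to ribosomes and to the factors that assemble them, while cells short of nutrients or under stress turn these genes down and turn on genes of stress protection, storage carbohydrates, respiration and autophagy. The switch runs largely through protein kinase A, TORC1 and the transcription factors Msn2 and Msn4, and daughter cells add a program of their own that digests the septum between mother and bud.

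The deposited values are ratios: every array has a median of 1, and each gene is set relative to its own usual level over the arrays. A ratio of 2 therefore means 2 times the gene's own typical level, and ratios of different genes do not rank them by abundance. Of 10928 probe sets, 8968 were tested, of which 5498 carry a single gene name and cover 5449 genes. Differences are given as log2 fold changes of LSMMG over control with their standard error (SE), fitted with limma over 12 arrays, and a gene is called when its adjusted p is under 0.05 and its change at least 2-fold.

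Some control arrays stood apart from the rest. The study's authors left out 1 aberrant control array without saying which. It is not stated whether that array is among the deposited ones, and all 6 of these were used here. On control replicates 1 and 2 of 25 generations, the 16 control probe sets for ribosomal RNA had median ratios of 103.8 and 96.9, against 2.87 on control replicate 3 of 25 generations and 0.70 to 1.14 on the other 9 arrays. Control replicates 1 and 2 of 5 generations lay part of the way from the mean of the remaining control arrays to the LSMMG mean. The median share of this distance was 0.483 and 0.541 for genes called higher in LSMMG, and 0.168 and 0.193 for genes called lower. Control replicate 3 of 5 generations correlated with the 3 control arrays of 25 generations at 0.889, 0.841 and 0.948, and with the other control arrays of its own generation at 0.609 and 0.373. These correlations are across genes and describe the arrays only. Counts are given below with and without these arrays, whose part in each result was not tested further. Leaving out control replicates 1 and 2 of a generation leaves 1 control array at that time. Leaving out those of both generations leaves 1 control array at each time, and these correlated at 0.948. The median gene had an SD of its log2 ratio of 0.26 over the control arrays and of 0.15 over the LSMMG arrays.

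LSMMG changed the expression of a large part of the genome in the fit over both times. Of 5449 genes, 1181 were called (21.7%), 732 of them higher (13.4%) and 449 lower (8.24%). Over all tested probe sets 1257 of 8968 were called (14.0%) and among those without a gene name 68 of 3470 were called (1.96%). A change of at least 4-fold was seen for 195 genes (3.58%), 129 higher and 66 lower, and a change of at least 8-fold for 23 higher and 4 lower genes. Without a fold minimum, 3828 genes passed the test (70.3%), 2229 higher (40.9%) and 1599 lower (29.3%), and these shares are the background against which the gene lists below are read. The 6 LSMMG arrays did not overlap the 6 control arrays for 2428 genes (44.6%), and for 992 of the 1181 called genes. The excess of higher over lower calls depended on the scaling: higher genes made up 62.1% of the called probe sets with a gene name, 47.4% after quantile normalization and 55.4% with the array medians set on these probe sets. These scalings moved the median log2 fold change of the same probe sets from 0.14 to 0.04 and 0.05. Leaving out control arrays moved the count in both directions, from 1096 probe sets without control replicate 3 of 5 generations to 1822 without control replicates 1 and 2 of both generations, of which 1087 and 1225 were shared with the 1257.

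SPG4, which stationary cells need to stay viable, and TMA10, which encodes a small protein associated with ribosomes, had the largest rises in the ratios as deposited. The ratio of SPG4 ran from 0.01 to 0.218 over the controls (median 0.0377) and from 1.79 to 2.26 over the LSMMG arrays (median 1.99), so that it rose by 5.62 on the log2 scale (SE 0.65, adjusted p = 1.9e-05). Of its control values 2 lie at 0.01, the lowest ratio of the table, and with ratios below 0.1 set to 0.1 the change was 4.04, which is below that of MPC3 (4.08). TMA10 ran from 0.0193 to 0.208 (median 0.0508) on the control arrays and from 1.80 to 4.08 (median 2.81) on the LSMMG arrays, a change of 5.51 (SE 0.44, adjusted p = 1.1e-06), or 45.4-fold, and of 4.53 with that floor. Neither gene had a control array that reached the lowest LSMMG array. RGI1, a protein of energy metabolism under respiration, had control ratios of 0.0553 to 0.271 and LSMMG ratios of 1.74 to 2.81, and rose by 4.17 (SE 0.30, adjusted p = 5.0e-07). HSP30, a heat shock protein of the plasma membrane that restrains the proton pump Pma1, had control ratios of 0.0321 to 0.385 and LSMMG ratios of 1.63 to 2.75, and rose by 4.09 (SE 0.58, adjusted p = 8.7e-05), or 17-fold. With ratios below 0.1 set to 0.1, RGI1 and HSP30 changed by 4.02 and 3.585. For both, all LSMMG arrays lay above all control arrays, and the control arrays spread far more widely than the LSMMG arrays.

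MPC3, the subunit that replaces Mpc2 in the mitochondrial pyruvate carrier of respiring cells, combined a large rise with a small error. Its control ratios ran from 0.101 to 0.174 (median 0.136) and its LSMMG ratios from 1.84 to 2.77 (median 2.32), so that both groups were tight and far apart, and the change of 4.08 had an SE of only 0.10 (adjusted p = 2.1e-10). BTN2, which sorts misfolded proteins into deposits, had control ratios of 0.205 to 0.269, LSMMG ratios of 1.74 to 2.08 and a rise of 2.99 (SE 0.08, adjusted p = 2.1e-10). CUR1, its paralog, rose by 2.76 (SE 0.35, adjusted p = 3.5e-05). Other rises of this kind were those of PCL8, a cyclin of the Pho85 kinase that acts on glycogen synthase (1.49, SE 0.08), GLC8, which regulates protein phosphatase 1 (1.37, SE 0.07), RAV2, an assembly factor of the vacuolar proton pump (1.47, SE 0.07), and PEX3, an import receptor for peroxisomal membrane proteins (1.42, SE 0.08), with adjusted p from 2.5e-08 to 1.2e-07. These are modest changes, each well beyond the spread between arrays.

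Among the other large rises were IGD1, an inhibitor of the glycogen debranching enzyme (3.77, adjusted p = 2.0e-06), PUT1, the proline oxidase (3.59, adjusted p = 8.3e-06), ATO2, a putative ammonium exporter (3.44, adjusted p = 1.1e-06), and SPS100, a spore wall protein (3.60, adjusted p = 7.2e-05). YER053C-A, whose function is not known, rose by 3.92 (adjusted p = 8.0e-07), and the neighbouring uncharacterized genes YMR084W and YMR085W rose by 3.83 and 3.42 (adjusted p = 4.0e-07 and 3.0e-06).

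DBP2, an RNA helicase of rRNA processing and mRNA assembly, had the largest fall. Its control ratios ran from 1.80 to 6.03 (median 3.70) and its LSMMG ratios from 0.147 to 0.218 (median 0.168), so that it changed by -4.36 on the log2 scale (SE 0.27, adjusted p = 1.6e-07), or 20.6-fold. AAH1, the adenine deaminase whose messenger is known to be shut off when growth stops, had control ratios of 1.78 to 2.87 and LSMMG ratios of 0.152 to 0.214, and fell by 3.59 on the log2 scale (SE 0.09, adjusted p = 2.1e-10). Its error was close to those of MPC3 and BTN2. INA1, a membrane protein of unknown function, changed by -3.45 (SE 0.15), the uncharacterized YGR079W and YOR338W by -3.10 (SE 0.21) and -2.89 (SE 0.11), and TRM11, which methylates a guanine of tRNA, by -2.91 (SE 0.25), with adjusted p from 7.3e-09 to 2.0e-06. RNR1, the large subunit of ribonucleotide reductase, ran from 1.72 to 2.49 on the control arrays and from 0.214 to 0.301 on the LSMMG arrays, a change of -2.98 (SE 0.12, adjusted p = 1.3e-08).

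**Figure D1:**
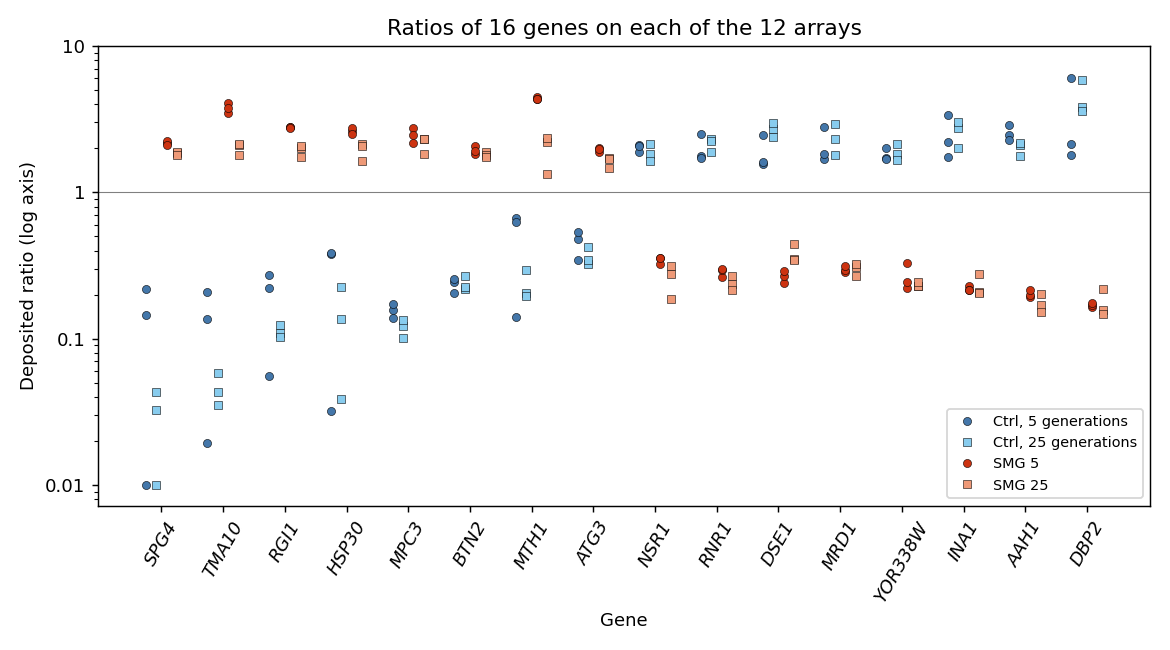
Deposited ratio (log axis) of 16 genes on each of the 12 arrays, with circles for 5 and squares for 25 generations, blue for Ctrl and red for LSMMG. For the 8 genes on the left every LSMMG array lies above every control array, and for the 8 on the right below, as with DBP2 at 0.147 to 0.218 in LSMMG against 1.80 to 6.03 in Ctrl. The control values of SPG4, TMA10 and HSP30 spread over more than a factor of 10 while their LSMMG values lie close together.

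The factors that build ribosomes fell almost without exception. Of 44 measured factors of the small-subunit processome, which folds and cuts the precursor of 18S rRNA, all 44 were lower at an adjusted p under 0.05, with a median log2 fold change of -1.36 against 0.14 for all genes, and for 42 of them (95.5%, against 44.6% of all genes) the LSMMG and control arrays did not overlap. Of 54 assembly factors of the large subunit, 51 were lower, 0 higher and 3 did not pass, with a median of -1.45 and 46 without overlap (85.2%). MRD1, which brings U3 snoRNA-bound pre-rRNA into its processing complex, had control ratios of 1.68 to 2.93 and LSMMG ratios of 0.270 to 0.325, and fell by 2.86 on the log2 scale (SE 0.14, adjusted p = 5.0e-08). NSR1, the yeast nucleolin, had control ratios of 1.63 to 2.12 and LSMMG ratios of 0.188 to 0.357, a change of -2.71 (SE 0.13, adjusted p = 3.5e-08). In both genes the lowest control array was over 4 times the highest LSMMG array. DHR2, an RNA helicase of 18S rRNA synthesis, changed by -2.76, and the processome subunits UTP4, UTP18 and UTP5 by -2.04, -1.69 and -1.55 (adjusted p from 5.0e-08 to 5.8e-07). On the large-subunit side ALB1 and ARX1, partners that leave the nucleus with the pre-60S particle, changed by -2.49 and -2.01, REI1, which removes them in the cytoplasm, by -2.04, and RPF1, CIC1 and NOP7, factors of the nucleolar particle, by -1.90, -1.85 and -1.72 (adjusted p from 1.3e-08 to 2.5e-05). Without control replicates 1 and 2 of both generations, 44 of 44 and 52 of 54 were lower, with medians of -1.65 and -1.65.

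The machinery that transcribes rRNA and modifies tRNA moved the same way. Of 33 subunits and factors of RNA polymerases I and III, 21 were lower and 4 higher, with a median of -0.36, and the named falls were all of the polymerase I system: RPA34, RPA43 and RPA49, subunits specific to polymerase I, changed by -1.64, -1.42 and -1.39, and RRN11, of the core factor that recruits it, by -1.76 (adjusted p from 1.0e-07 to 2.0e-06). Of 37 tRNA modification enzymes, 30 were lower and 2 higher, with a median of -0.87. Besides TRM11, the tRNA methyltransferases TRM5, TRM2, TRM82 and GCD10 changed by -1.78, -1.48, -1.37 and -1.66 and the dihydrouridine synthase DUS3 by -1.28 (adjusted p from 9.1e-08 to 2.6e-07).

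Ribosomal proteins and translation factors fell less. Of 31 measured cytosolic ribosomal protein genes, 22 were lower, 0 higher and 9 did not pass, with a median of only -0.30, so that most of them changed far less than the factors that assemble them into ribosomes. Both copies of the L22 gene fell: RPL22A had control ratios of 1.5 to 2.13 and LSMMG ratios of 0.376 to 0.505 (change -2.02, SE 0.11, adjusted p = 9.2e-08), and RPL22B changed by -1.56 (adjusted p = 1.2e-05). RPS18B changed by -1.5 (adjusted p = 3.1e-07) on its own probe set and by -0.29 on a second probe set of the type that also reads near-identical copies. RPS9B, RPS0A and RPS13 changed by -1.18, -1.06 and -0.84 (adjusted p from 1.5e-06 to 3.0e-06). Of 37 initiation and elongation factors, 23 were lower and 5 higher (median -0.40), among them the eIF3 subunits PRT1 and RPG1 (-1.21 and -0.91) and TIF5, which is eIF5 (-1.04). Of 19 cytosolic aminoacyl-tRNA synthetases, 15 were lower and 0 higher (median -0.39), led by the valine and methionine enzymes VAS1 and MES1 (-1.28 and -1.17). Of 40 nuclear pore proteins and karyopherins, 30 were lower and 3 higher (median -0.41). POM152, a membrane ring protein of the pore, changed by -1.19 and the importins PSE1 and SXM1, which carry ribosomal proteins, by -0.65 and -0.70, while NUP42 rose by 0.72 (adjusted p from 1.5e-06 to 1.3e-05).

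**Figure D2:**
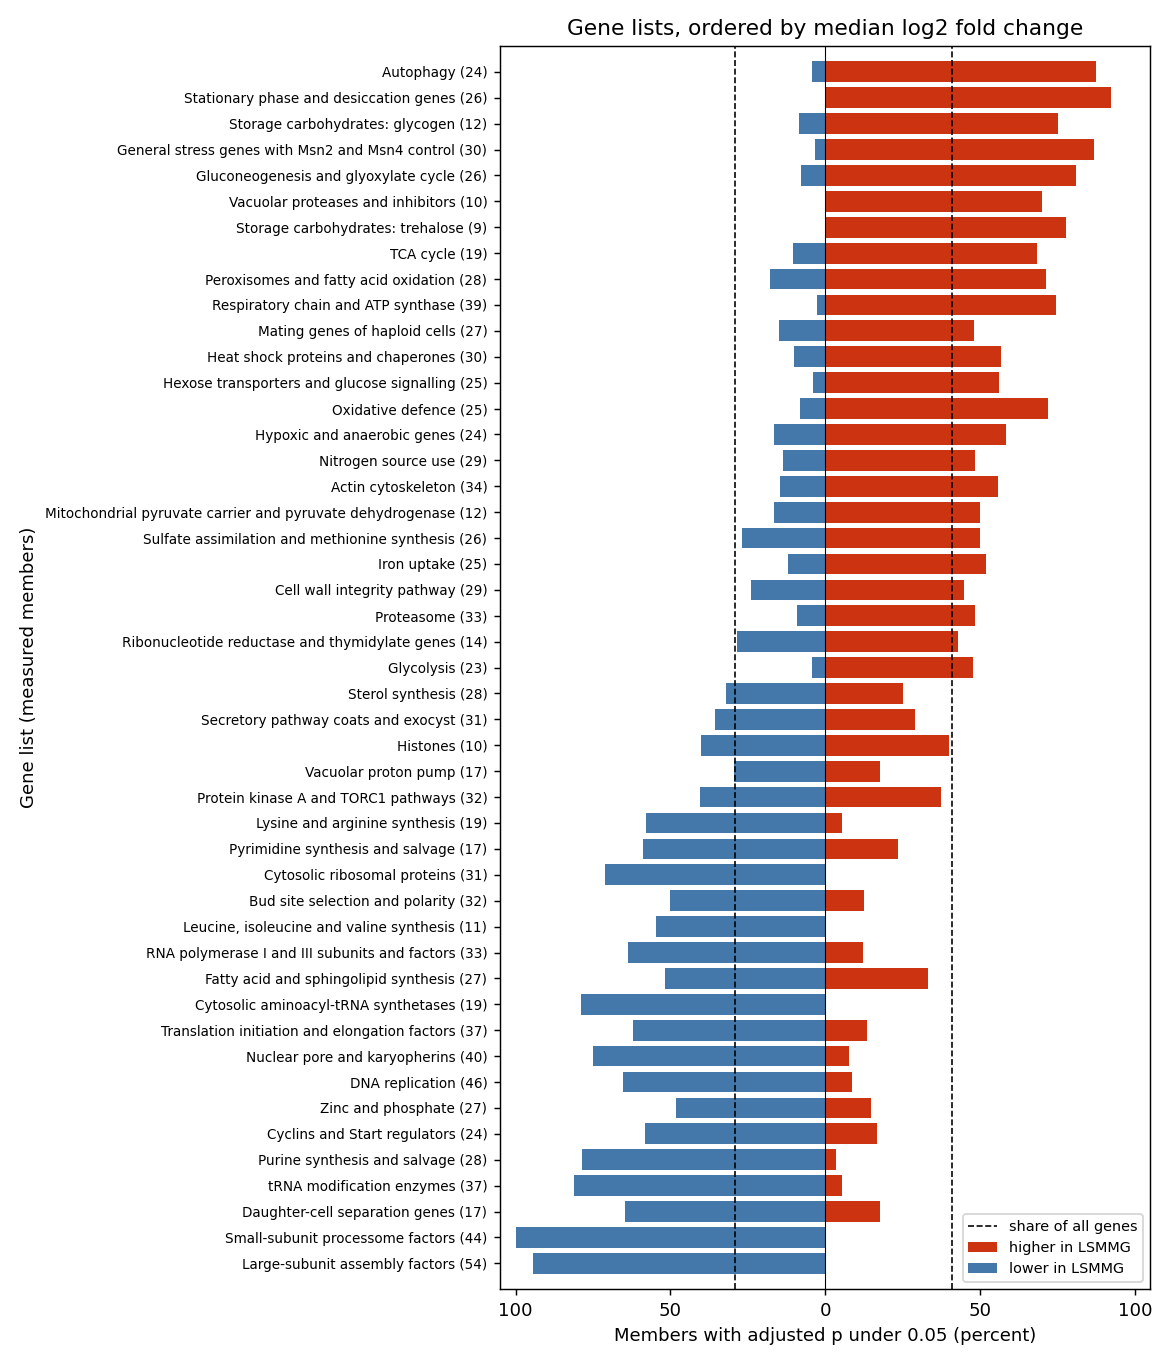
Percent of the measured members of each of 47 gene lists that were higher (red, to the right) or lower (blue, to the left) in LSMMG at an adjusted p under 0.05, ordered by the median log2 fold change, with the number of measured members in parentheses. The dashed lines give the shares of all genes, 40.9% higher and 29.3% lower. Ribosome assembly lists sit at the bottom with 44 of 44 and 51 of 54 members lower, and autophagy and stationary phase lists at the top with 21 of 24 and 24 of 26 higher.

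Genes of purine synthesis were mostly lower. Of 28 genes of purine synthesis and salvage, 22 were lower and 1 higher, with a median of -0.82. AAH1 stood far below the rest. ADE17, which completes the synthesis of IMP, had control ratios of 1.39 to 2.21 and LSMMG ratios of 0.395 to 0.628, and fell by 1.91 on the log2 scale (SE 0.08, adjusted p = 2.5e-08). ADE4, the enzyme of the committed step, changed by -1.68, MTD1, which interconverts folates used in the pathway, by -1.80, and BAS1, the transcription factor of the ADE genes, by -1.29 (adjusted p from 5.6e-08 to 1.5e-07). HIS1, the enzyme that opens histidine synthesis and is under the same factor, changed by -2.24 (adjusted p = 2.5e-08). Of 17 pyrimidine genes 10 were lower and 4 higher, among them the permease FCY2 (-2.48), the uracil salvage enzyme FUR1 (-1.70) and the CTP synthase URA7 (-1.60), with YNK1, the nucleoside diphosphate kinase, higher at 1.18 (adjusted p from 5.3e-08 to 1.2e-04).

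Genes of the cell cycle fell in part. Of 24 cyclins and regulators of Start, 14 were lower and 4 higher, with a median of -0.67. CLB6, an S-phase cyclin, had control ratios of 1.53 to 3.96 (median 2.10) and LSMMG ratios of 0.274 to 0.469 (median 0.331), a change of -2.78 (SE 0.23, adjusted p = 1.2e-06). CLB1, a mitotic cyclin, had control ratios of 1.45 to 4.22 and LSMMG ratios of 0.399 to 0.564 and changed by -2.60 (adjusted p = 7.7e-07). The arrays of the 2 conditions did not overlap for either cyclin. NRM1, the corepressor that closes the G1 wave of transcription, changed by -2.01, and PCL2, a G1 cyclin of Pho85, by -1.39 (adjusted p = 4.6e-08 and 9.7e-07). Of 46 DNA replication genes 30 were lower and 4 higher (median -0.50), with MCM7 and MCM6, of the replicative helicase, at -1.57 and -1.29, and POL1 and POL12, of DNA polymerase alpha, at -1.60 and -1.22 (adjusted p from 2.5e-08 to 2.2e-06). In bulk RNA a smaller share of cells in a stage of the cycle and less RNA per cell cannot be told apart. The 14 genes of deoxynucleotide supply were divided, 4 lower (28.6%) and 6 higher (42.9%), near the shares of all genes (29.3% and 40.9%). DUT1, the dUTPase, and CDC21, thymidylate synthase, changed by -1.22 and -1.0 with RNR1. HUG1, an inhibitor of ribonucleotide reductase, rose by 1.86, and RFX1, the repressor of the damage-inducible RNR genes, by 0.84. Histones were divided as well, 4 lower (40%) and 4 higher (40%) of 10. HTB2 and the linker histone HHO1 were at -1.05 and -0.87 and HTB1 and HHT1 at 0.43 and 0.41.

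The daughter-cell program of mother-daughter separation was among the most reduced. Of 17 genes, 11 were lower, 3 higher and 3 did not pass, with a median of -1.01. DSE1, which helps daughters to part, had control ratios of 1.56 to 2.97 (median 2.43) and LSMMG ratios of 0.241 to 0.447 (median 0.318), and fell by 2.81 on the log2 scale (SE 0.12, adjusted p = 2.5e-08). EGT2, a septum-degrading protein, had control ratios of 1.35 to 5.20 (median 3.71) and LSMMG ratios of 0.423 to 0.666, a change of -2.63 (SE 0.26, adjusted p = 4.8e-06). Its 2 lowest control ratios, 1.35 and 2.04, were those of control replicates 2 and 1 of 5 generations. The glucanases DSE4 and SCW11 changed by -2.76 and -2.47, DSE3 by -1.71, and AMN1, which resets the mitotic exit network in daughters, by -1.10 (adjusted p from 1.6e-07 to 7.3e-07). ASH1, whose messenger is carried to the daughter, changed by -1.01 (adjusted p = 7.8e-07).

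Genes that place the bud changed less as a group than singly. Of 32 genes of bud site selection and polarity, 16 were lower, 4 higher and 12 did not pass, with a median of -0.30. RAX2, a landmark of the bipolar pattern, had control ratios of 1.39 to 2.33 and LSMMG ratios of 0.472 to 0.618, and changed by -1.71 (SE 0.12, adjusted p = 5.4e-07). BUD4, an anchor of the axial landmark, changed by -1.25, RSR1, the Ras-type GTPase that reads the landmarks, by -1.16, GIC1, an effector of Cdc42, by -1.05, and the formin BNR1 by -1.03 (adjusted p from 3.4e-07 to 5.8e-06). BUD21, named for a budding defect and a part of the small-subunit processome, changed by -1.29 (adjusted p = 8.6e-07). Actin genes were higher more often than lower: 19 of 34 were higher and 5 lower (median 0.36), among them ARC18, ARC19 and ARC35 of the Arp2/3 complex (1.06, 0.77 and 0.69) and the endocytic proteins END3 and RVS161 (0.82 and 0.81), with adjusted p from 4.0e-06 to 3.9e-05.

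The cell wall integrity pathway was mixed, with 13 of 29 genes higher (44.8%), 7 lower (24.1%) and 9 not passing. These shares are close to those of all genes, 40.9% and 29.3%. SDP1, a phosphatase of the MAP kinase Slt2, had control ratios of 0.110 to 0.427 and LSMMG ratios of 1.57 to 2.27 and rose by 3.07 (SE 0.32, adjusted p = 7.0e-06). PTP2, a second phosphatase of the pathway, rose by 1.38 (adjusted p = 3.7e-04). The surface sensors moved in different directions: MTL1 and SLG1 rose by 1.23 and 0.91, while WSC2 fell by 1.09 on the log2 scale (adjusted p = 4.8e-06, 3.0e-06 and 4.5e-05). FKS1, the glucan synthase, GAS1, which elongates glucan, and LRG1, which restrains Rho1, changed by -0.83, -0.93 and -1.01 (adjusted p from 7.6e-07 to 5.5e-06).

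Genes of stationary phase, stress and storage carbohydrates rose together. Of 26 genes of stationary phase and desiccation, 24 were higher, 0 lower and 2 did not pass, with a median of 1.45. SIP18, a protein of desiccation tolerance, rose by 3.35, SPG1, a gene of stationary phase survival, by 2.78, and IGO2, which protects messengers at the entry into quiescence, by 1.45 (adjusted p from 1.8e-06 to 9.7e-06). Of 30 genes under Msn2 and Msn4 control 26 were higher and 1 lower, with a median of 1.25. XBP1, a stress-induced repressor of cyclin genes, had control ratios of 0.103 to 0.681 and LSMMG ratios of 1.33 to 2.09 and rose by 2.62 (SE 0.31, adjusted p = 2.1e-05), and OM45, of the mitochondrial outer membrane, rose by 2.13 (adjusted p = 8.2e-05). Of 12 glycogen genes 9 were higher and 1 lower, with a median of 1.30: with IGD1 rose GIP2 and PIG2, which direct protein phosphatase 1 to glycogen synthase (2.02 and 1.85), GLG1, which primes the polymer (1.96), and GSY1, a glycogen synthase (1.18). Of 9 trehalose genes 7 were higher and 0 lower, with the acid trehalase ATH1 at 1.76 and TSL1 and TPS1 of the synthase complex at 1.15 and 0.87. For this list the median was 1.13 at 5 and 0.62 at 25 generations. After quantile normalization 24 of 26, 25 of 30, 9 of 12 and 7 of 9 members of the lists, in the order given, were higher. The medians were then 1.09, 0.98, 0.98 and 0.73. Without control replicates 1 and 2 of 25 generations, 23 of 30 genes under Msn2 and Msn4 control were higher. Without control replicates 1 and 2 of both generations, 24 of 26, 29 of 30, 11 of 12 and 8 of 9 members of these lists were higher.

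Oxidative defence and protein folding rose in part. Of 25 genes of oxidative defence 18 were higher and 2 lower (median 0.52), among them SRX1, the sulfiredoxin that restores peroxiredoxins (2.5), and CTA1, the peroxisomal catalase (1.60), while SOD1, the main superoxide dismutase, rose by 0.40. Among 30 chaperones and other heat shock genes, 17 passed as higher and 3 as lower (median 0.54). Beside HSP30, BTN2 and CUR1, the Hsp40 protein APJ1 rose by 2.0, the exchange factor FES1 by 0.86 and HSF1, the transcription factor of the heat shock response, by 0.88 (adjusted p from 1.3e-06 to 2.6e-05). The cytosolic Hsp90 HSC82 had a change of 0.08 (95% interval -0.05 to 0.20, adjusted p = 0.32). Of 33 proteasome genes 16 were higher and 3 lower, at a median of 0.20 that was close to that of all genes, although RPN4, their transcription factor, rose by 1.37 (SE 0.10, adjusted p = 4.2e-07). RPN13 and RPN11, which take up and cut off ubiquitin, rose by 0.56 and 0.35, and RPT6, of the ring that unfolds substrates, had a change of -0.58.

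Autophagy genes rose together. Among 24 of them, 21 passed as higher and 1 as lower, with a median of 1.49, and the arrays did not overlap for 20 (83.3%). ATG3, which conjugates Atg8 to a phospholipid, had control ratios of 0.322 to 0.535 (median 0.386) and LSMMG ratios of 1.47 to 2.0 (median 1.81), a rise of 2.15 (SE 0.11, adjusted p = 5.4e-08). ATG17 and ATG29, scaffold proteins that start the autophagosome, rose by 2.26 and 2.24, the sorting nexin ATG20 by 1.81 and ATG19, a cargo receptor, by 1.47 (adjusted p from 6.1e-06 to 1.4e-05). Of 10 vacuolar proteases and inhibitors 7 were higher and 0 lower: the carboxypeptidase CPS1 rose by 2.08, the aminopeptidase APE1 by 1.13, and the inhibitors PAI3 and PBI2 by 1.98 and 0.99. Without control replicates 1 and 2 of both generations, 22 of 24 autophagy genes and 8 of 10 vacuolar genes were higher.

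In carbon metabolism, genes of non-fermentative growth rose and the main glycolytic genes stayed near their control level. Of 23 glycolytic genes 11 were higher and 1 lower, with a median of 0.13, about that of all genes, and after quantile normalization 5 were higher and 1 lower. TDH3, the main glyceraldehyde-3-phosphate dehydrogenase, had control ratios of 0.933 to 0.999 and LSMMG ratios of 0.998 to 1.05, and its change of 0.08 had a 95% interval of -0.03 to 0.19 (adjusted p = 0.24). ENO2, an enolase, had 0.11 (interval -0.01 to 0.23, adjusted p = 0.11). In the methods' test, on unpooled spreads, these small changes of TDH3 and ENO2 passed (adjusted p = 0.016 and 0.022). The changes of at least 2-fold in this list were those of 4 genes. PFK26, which makes the activator fructose-2,6-bisphosphate, rose by 2.22 and FBP26, which breaks it down, by 1.44 (adjusted p = 3.6e-06 and 1.4e-05). The minor hexokinase HXK1 rose by 1.31 (adjusted p = 1.4e-04) and the minor pyruvate decarboxylase PDC6 by 1.0 (adjusted p = 0.0025), while HXK2, the main one, had a change of 0.10 (interval -0.15 to 0.35, adjusted p = 0.51).

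Sugar uptake and its signalling rose in 14 of 25 genes, with 1 lower. MTH1, a corepressor of hexose transporter genes that is removed when glucose is ample, had control ratios of 0.140 to 0.673 and LSMMG ratios of 1.33 to 4.47 and rose by 3.28 (SE 0.34, adjusted p = 7.1e-06). HXT5, a transporter made by slowly growing cells, had control ratios of 0.0551 to 0.623 and LSMMG ratios of 1.39 to 2.37 and rose by 3.13 (SE 0.47, adjusted p = 1.3e-04). GPA2, the G protein of the glucose receptor, rose by 1.74 and the low-glucose sensor SNF3 by 0.68. HXT1, the transporter of high glucose, split the controls instead: its ratio was 0.331 and 0.235 on control replicates 1 and 2 of 5 generations and 1.86 to 2.94 on the other 4 control arrays, with the LSMMG arrays between them at 0.927 to 1.19. Its change over all arrays was -0.18 (SE 0.52, adjusted p = 0.81), and without those 2 control arrays it was -1.19 (adjusted p = 1.8e-05).

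Of 26 genes of gluconeogenesis and the glyoxylate cycle 21 were higher and 2 lower, with a median of 1.20 that was 0.66 at 5 and 1.62 at 25 generations. ADH2, which oxidizes ethanol, had control ratios of 0.213 to 0.753 and LSMMG ratios of 1.26 to 2.26 and rose by 2.35 (SE 0.27, adjusted p = 1.9e-05). CAT2, the carnitine acetyltransferase, rose by 2.26 and CIT2, the peroxisomal citrate synthase, by 1.59. Of 19 TCA cycle genes 13 were higher and 2 lower (median 0.69), with MDH1, the mitochondrial malate dehydrogenase, at 1.63 (SE 0.09, adjusted p = 8.1e-08) and KGD2 at 1.07. Of 39 genes of the respiratory chain and ATP synthase 29 were higher and 1 lower (median 0.56), but the arrays overlapped for most and only 10 (25.6%, against 44.6% of all genes) were without overlap. HAP4, the activator of respiratory genes, rose by 1.76 and STF1, an inhibitor of the ATP synthase, by 1.16, while the subunits QCR8 and ATP15 rose by 0.60 and 0.75. Of 28 genes of peroxisomes and fatty acid oxidation 20 were higher and 5 lower (median 0.63), with PEX19, the partner of PEX3, at 1.43 and the fatty acid activator FAA4 at -1.38. PKP1 and PTC6, the kinase and a phosphatase of pyruvate dehydrogenase, rose by 1.34 and 1.22. Without control replicates 1 and 2 of 25 generations, 16 of 26 and 25 of 39 members of the gluconeogenic and respiratory lists were higher, and without those of both generations 22 and 34.

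Pairs of isozymes or paralogs were mixed. Of 34 pairs written from general knowledge, both genes passed the test in opposite directions in 8 (23.5%), which is the background: the shares of all genes that passed as higher and as lower give 24.0% for genes paired without regard to function. The 8 pairs are given as values only. MPC2, the pyruvate carrier subunit of fermenting cells, changed by -0.28 (adjusted p = 0.0099) while MPC3 rose by 4.08. The minor phosphoglucomutase PGM1 changed by -1.43 (adjusted p = 7.3e-04) while PGM2, the major one, rose by 1.29 (adjusted p = 1.1e-04). The phosphate carrier MIR1 changed by -0.71 and its relative PIC2 rose by 1.71 (adjusted p = 3.2e-05 and 8.4e-06). The acetyl-CoA synthetase ACS2 changed by -0.40 (adjusted p = 0.0062) and ACS1, the form of respiring cells, rose by 1.19 (adjusted p = 5.7e-05), and ACS2 did not pass in the methods' test (adjusted p = 0.061). The cytosolic aldehyde dehydrogenase ALD6 changed by -1.63 (adjusted p = 4.0e-04), with control ratios of 1.05 to 4.60 and LSMMG ratios of 0.729 to 0.959, and the stress-induced ALD3 rose by 1.67 (adjusted p = 0.021). Ribonucleotide reductase RNR1 and its damage-induced relative RNR3 had -2.98 and 0.70 (adjusted p = 1.3e-08 and 0.017), the cytochromes c CYC1 and CYC7 had -0.39 and 1.99 (adjusted p = 0.0072 and 0.0037), and the lactonases SOL3 and SOL4 had -0.34 and 1.78 (adjusted p = 0.028 and 3.8e-04). In each of these last 4 pairs 1 member no longer passed the test under some alternatives. ALD3 did so in the methods' test (adjusted p = 0.059), without control replicates 1 and 2 of 25 generations (adjusted p = 0.10), without control replicate 3 of 25 generations (0.051) and without SMG 25 replicate 3 (0.053). RNR3 did so after quantile normalization (adjusted p = 0.057) and in the methods' test (0.051). Both RNR3 and CYC1 did so without control replicates 1 and 2 of 25 generations (adjusted p = 0.12 and 0.057). SOL3 did so without control replicate 3 of 25 generations, SMG 5 replicate 2 or 3, or SMG 25 replicate 2 (adjusted p from 0.055 to 0.059), and also without the generation term (0.12) and in the methods' test (0.16).

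**Figure D3:**
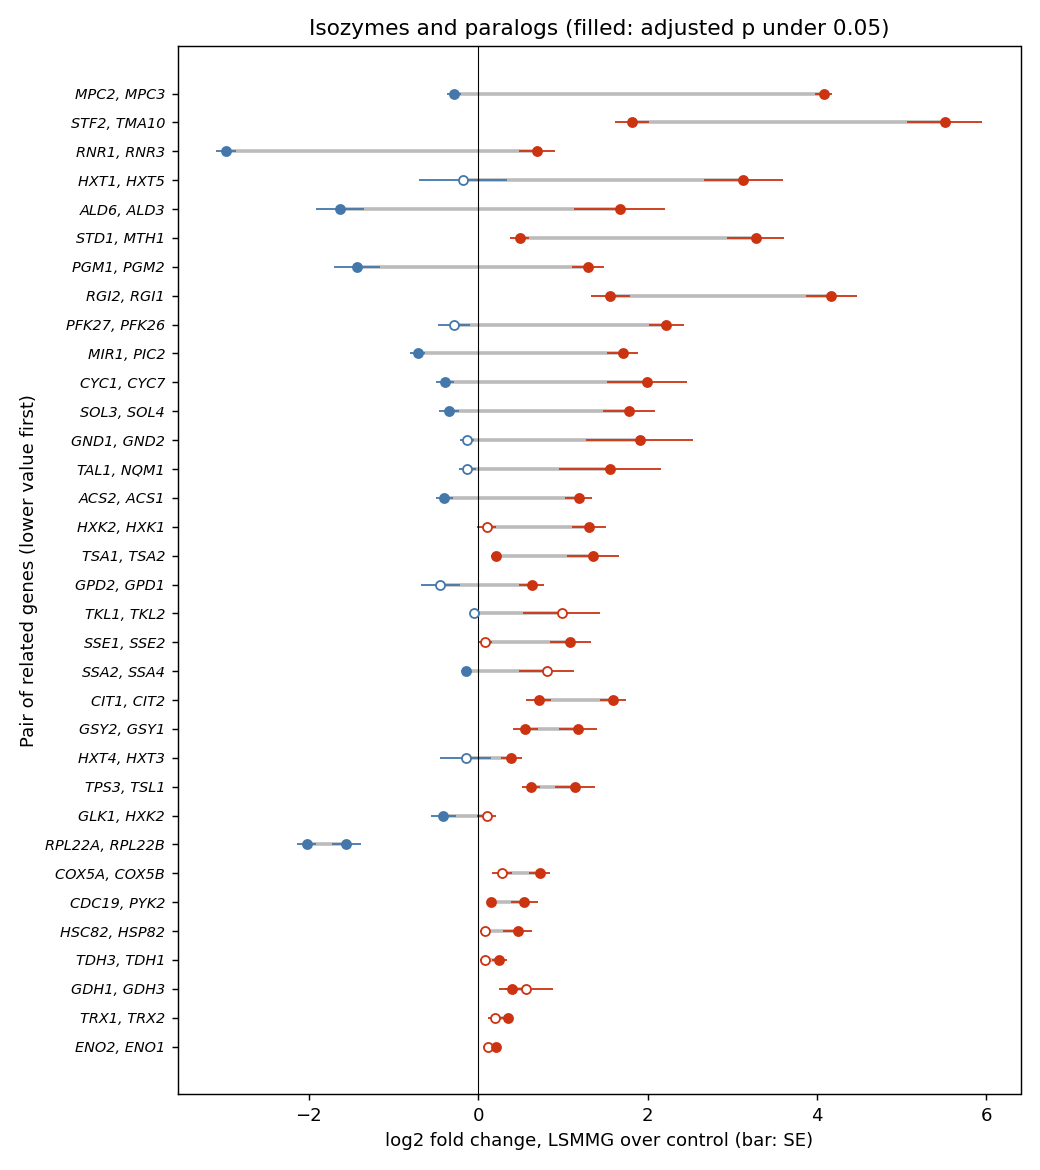
Log2 fold change of LSMMG over control for both genes of 34 pairs of isozymes or paralogs, with SE bars, red above 0 and blue below, filled where the adjusted p is under 0.05; each label gives the gene with the lower value before the other. MPC2 at -0.28 and MPC3 at 4.08 lie among the farthest apart, and the enolases ENO2 at 0.11 and ENO1 at 0.21 close together.

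Genes of amino acid synthesis and nutrient use differed by pathway. Of 11 genes of leucine, isoleucine and valine synthesis 6 were lower and 0 higher, among them LEU9, a minor isopropylmalate synthase, at -2.67 and ILV2, acetolactate synthase, at -1.30 (adjusted p = 4.0e-07 and 3.0e-06). Of 19 genes of lysine and arginine synthesis 11 were lower and 1 higher, with ARG1, ARG3 and LYS20 at -1.89, -1.68 and -1.55. Of 26 genes of sulfate assimilation and methionine synthesis 13 were higher (50%) and 7 lower (26.9%), near the shares of all genes (40.9% and 29.3%). After quantile normalization 11 were higher and 8 lower. MET14, which activates sulfate, rose by 1.04, while SAM1, which makes S-adenosylmethionine, and the methionine permease MUP1 changed by -1.83 and -1.35. Of 29 genes of nitrogen source use 14 were higher and 4 lower, and 9 and 6 after quantile normalization. PUT1 rose by 3.59 and PUT3, the activator of PUT1, changed by -0.97 (adjusted p = 1.0e-06). DAL80, a GATA repressor, rose by 1.97 (adjusted p = 6.2e-04) and the GATA activator GAT1 by 0.90.

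Several phosphate genes fell. Of 27 genes of zinc and phosphate 13 were lower and 4 higher, with a median of -0.53, and the falls named here were all of phosphate genes. PHO84, the high-affinity transporter, had control ratios of 1.52 to 1.88 and LSMMG ratios of 0.306 to 0.484, and fell by 2.06 on the log2 scale (SE 0.10, adjusted p = 5.4e-08). PHO5, the secreted acid phosphatase, changed by -2.20, the low-affinity transporter PHO90 by -1.53, PHO81, the inhibitor of the Pho85 kinase, by -1.06 and VTC4, the polyphosphate synthase, by -1.02 (adjusted p from 1.1e-06 to 8.0e-06). Of 25 genes of iron uptake 13 were higher and 3 lower, and 8 and 5 without control replicates 1 and 2 of 25 generations. The decay factors CTH1 and TIS11, which remove messengers of iron-using proteins, rose by 1.32 and 1.59 and the wall mannoprotein FIT2 by 1.5, while the permease FTR1 changed by -1.18 (adjusted p from 9.7e-08 to 1.5e-04).

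Lipid genes were divided. Of 27 genes of fatty acid and sphingolipid synthesis 14 were lower and 9 higher. The elongases of very long chains ELO2 and ELO3 changed by -1.79 and -1.28 (adjusted p = 1.5e-05 and 5.2e-06), TSC10 and SUR2, which act on the sphingoid base, by -0.80 and -0.81, while ORM2, which restrains the first step of sphingolipid synthesis, rose by 1.23 (adjusted p = 2.5e-06). Of 28 sterol genes 9 were lower (32.1%) and 7 higher (25%), beside 29.3% and 40.9% of all genes, with HMG1, the HMG-CoA reductase, at -1.32. The sign of this list's median of 0.04 turned with the scaling (-0.04 after quantile normalization). Of 24 hypoxic and anaerobic genes 14 were higher and 4 lower: HEM13, a heme synthesis enzyme, rose by 1.42 and HMX1, heme oxygenase, by 1.54. PAU5 and PAU24, of a cell wall family with many near-identical copies that the probes may not tell apart, rose by 2.20 and 1.91.

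Regulators of growth were split within the protein kinase A and TORC1 pathways, with 12 of 32 genes higher (37.5%) and 13 lower (40.6%). Over all genes the shares were 40.9% and 29.3%. The 2 phosphodiesterases that break down cAMP moved in opposite directions: PDE1, the low-affinity enzyme, had control ratios of 0.223 to 0.684 and LSMMG ratios of 1.33 to 1.81 and rose by 2.10 (adjusted p = 8.4e-06), while PDE2, the high-affinity one, had control ratios of 1.24 to 1.73 and LSMMG ratios of 0.608 to 0.759 and changed by -1.19 (adjusted p = 4.0e-07). RAS1 changed by -1.71, the kinase subunit TPK2 rose by 1.07, and TOD6, a repressor of ribosome assembly genes, changed by -1.40 (adjusted p from 1.2e-06 to 5.0e-06).

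Mating genes, which a diploid keeps largely shut, were higher in 13 of 27 cases and lower in 4, but only 1 of the 27 (3.7%, against 44.6% of all genes) had arrays without overlap. STE18, the gamma subunit of the pheromone G protein, had control ratios of 0.381 to 1.07, ratios of 4.31, 5.03 and 4.46 in SMG 5, and 1.57, 1.42 and 0.944 in SMG 25, a rise of 2.10 (SE 0.29, adjusted p = 7.9e-05). MFA1, the precursor of a-factor, rose by 1.67 and the scaffold STE5 by 1.08, while STE12, their transcription factor, changed by -0.52. The count of higher mating genes was 8 without control replicates 1 and 2 of 25 generations and 20 without those of 5 generations.

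The control arrays differed among themselves more for some lists than for others. The median log2 ratio of the processome factors was 0.65, 0.70 and 0.99 on the control arrays of 5 generations and 0.56, 0.42 and 0.99 on those of 25 generations, against -0.60 to -0.91 on the LSMMG arrays, so that every control array lay well above every LSMMG array. For the gluconeogenic genes the medians were -0.05, 0.03 and -1.12 on the control arrays of 5 generations, -1.15, -1.21 and -1.34 on those of 25 generations, and 0.10 to 0.45 on the LSMMG arrays. For genes under Msn2 and Msn4 control they were -0.14, -0.15 and -1.70, then -0.71, -0.59 and -1.40, and 0.16 to 0.29 in LSMMG. For these 2 lists, control replicates 1 and 2 of 5 generations lay close below the LSMMG arrays and the other 4 control arrays further below. Several other rising lists were divided between the same arrays. Respiratory genes were at 0.01 and 0.12 on those 2 arrays and between -0.40 and -0.72 on the other 4 control arrays. Stationary phase genes were at -0.35 and -0.20, against -0.85 to -1.47. Trehalose genes did not split this way, at -0.34 and -0.72 on those 2 arrays and at -0.34 and -0.13 on control replicates 1 and 2 of 25 generations. Nor did hexose transport and signalling genes, which lay between -0.27 and -0.40 on all 6 control arrays. Autophagy kept a wider distance, at -0.37, -0.27 and -1.41, then -1.17, -0.84 and -1.47, against 0.32 to 0.51 in LSMMG.

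**Figure D4:**
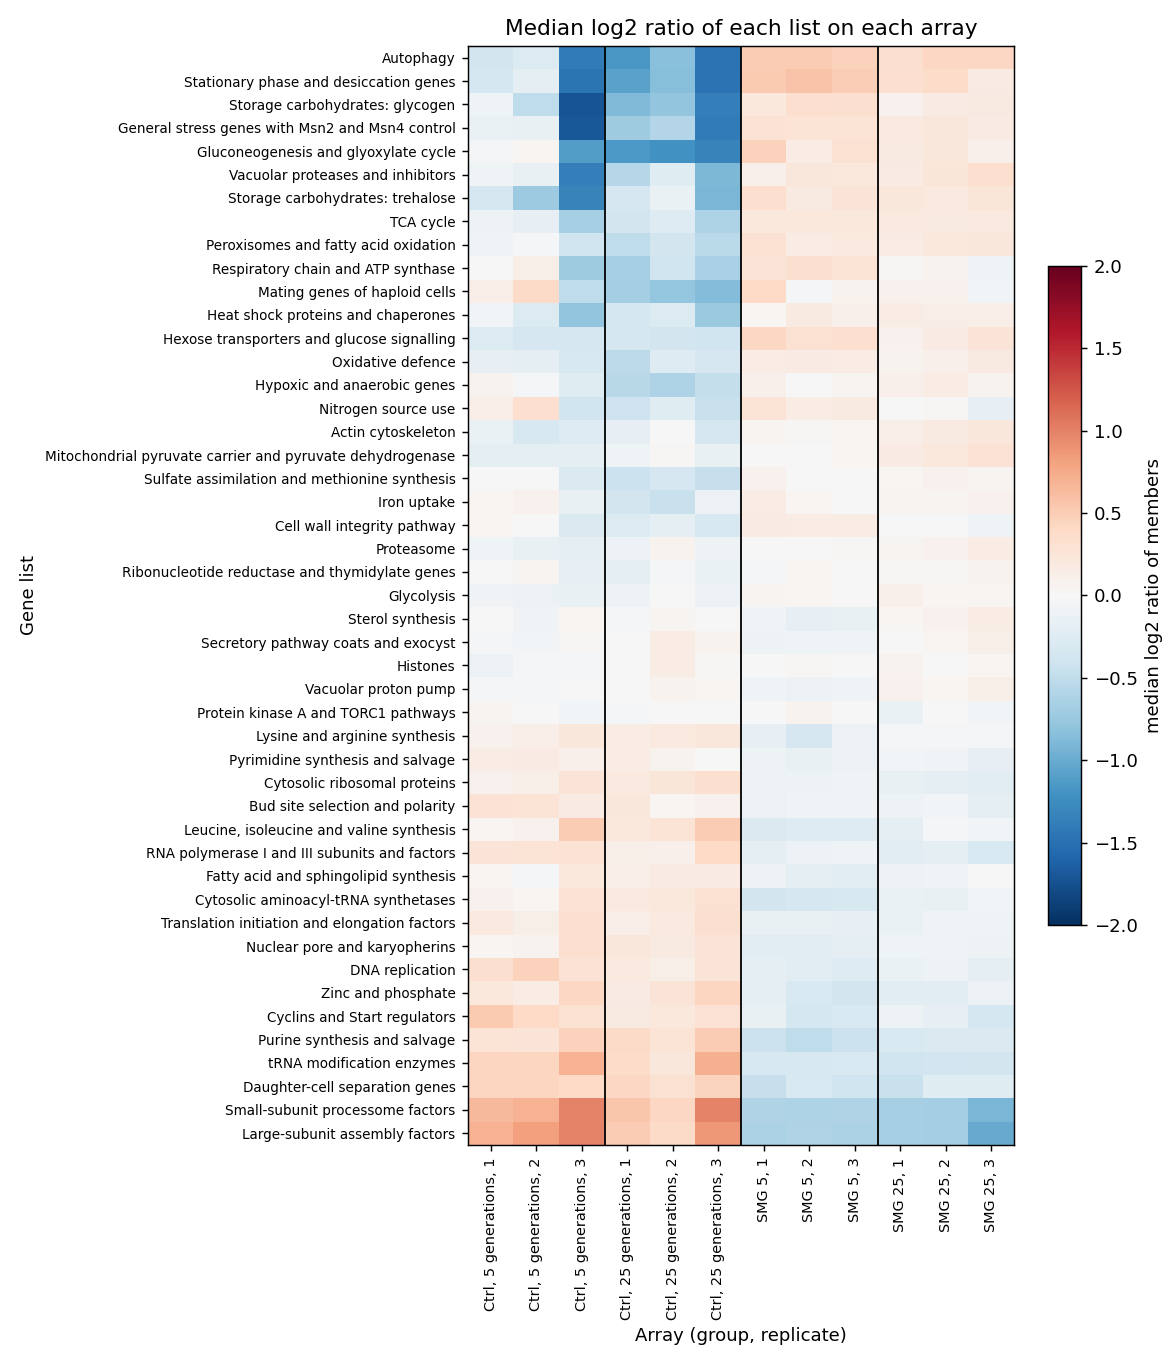
Median log2 ratio of the members of each of 47 gene lists (rows, ordered by their median log2 fold change) on each of the 12 arrays (columns, black lines between the groups), with red above and blue below 0. The lists at the bottom are red on all 6 control arrays, as the processome factors at 0.42 to 0.99, while several lists at the top are pale on control replicates 1 and 2 of 5 generations, as the gluconeogenic genes at -0.05 and 0.03.

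The effect was also estimated at each time. Each estimate used the LSMMG and control arrays of its own generation, with a spread estimated over all 12 arrays, and 941 genes were called at 5 generations (17.3%) and 1462 at 25 generations (26.8%). The counts moved with the arrays used: leaving out 1 array at a time gave 758 to 1249 probe sets at 5 generations, in place of 995. At 25 generations it gave 1376 to 1622, in place of 1558. Without control replicates 1 and 2 of 5 generations the order of the counts turned, but that fit has 1 control array at 5 generations. All 1181 genes called over both times had the same sign at both, which their selection on the mean of the effects nearly fixes, 808 of them were changed at least 2-fold at both (471 higher and 337 lower), and 759 were called at each time alone (428 higher and 331 lower). Only 6 were called at neither time alone. Some effects were nearly the same size at the times: NRP1, a putative RNA-binding protein of stress granules, had -1.45 and -1.45, SDS22, a regulator of protein phosphatase 1, 1.89 and 1.89, and FOL1, of folate synthesis, -1.07 and -1.07.

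**Figure D5:**
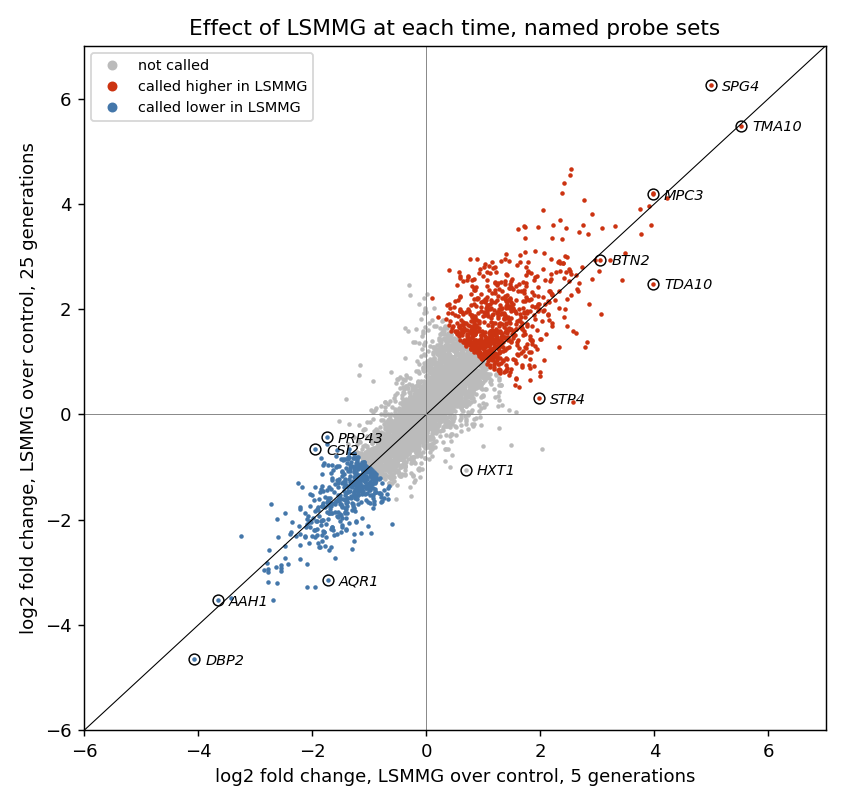
Log2 fold change of LSMMG over control at 25 generations (vertical axis) against that at 5 generations (horizontal axis), each with the 3 control arrays of its own generation, for the 5498 probe sets with a gene name; red and blue points are called higher and lower over both times, and the line marks equal effects. All called genes lie in the lower left or the upper right, and TMA10, MPC3, BTN2 and AAH1 lie near the line while STP4 (1.97 and 0.31) and AQR1 (-1.73 and -3.14) lie off it.

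A difference between the times passed the test for 14 genes (0.257%), of which 4 were called over both times. STP4, a zinc finger protein, rose by 1.97 at 5 generations and had 0.31 at 25 generations (adjusted p of the difference = 0.012). CSI2, a protein of the bud, changed by -1.95 and -0.67 (adjusted p = 0.018), PRP43, a helicase of splicing and ribosome assembly, by -1.75 and -0.44 (adjusted p = 0.034), and AQR1, an exporter of amino acids and short-chain acids, by -1.73 and -3.14 (adjusted p = 0.029). At an unadjusted p under 0.05, 223 of the 1181 called genes differed between the times, and the count of differences was unsteady. In place of 15 probe sets, 198 passed after quantile normalization, 46 without control replicates 1 and 2 of 5 generations, 9 with the replicate block and 1 without control replicates 1 and 2 of 25 generations. Each fit without control replicates 1 and 2 of a generation has 1 control array at that time. A gene that missed this threshold is not thereby shown to respond alike at both times.

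A further part of the genome was bounded near no change. For 1945 genes (35.7%) the 95% interval of the change lay within 1.5-fold in either direction, 1260 of them with an adjusted p of at least 0.05. The strain's own markers gave no check of the genotype, since a ratio scaled to each gene's own level cannot show a deletion: URA3 had -0.00, HIS3 -0.21 and LEU2 -0.43, with adjusted p of 0.99, 0.057 and 0.043, and the heterozygous LYS2 and MET17 had -0.77 and -0.58 (adjusted p = 1.9e-04 and 0.042). Under several alternatives LEU2 and MET17 no longer passed the test, and HIS3 newly passed. Among these were the methods' test for LEU2 and MET17 (adjusted p = 0.14 and 0.14) and quantile normalization for HIS3 (0.0068).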

How the data were processed

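RNA of 12 yeast samples had been hybridized to Affymetrix Yeast Genome 2.0 arrays, and the deposited table was used. The deposited values are ratios that the authors obtained with RMA and GeneSpring: each array has a median of 1 and each probe set is relative to its own level, by settings not given in the sources used here. A ratio carries no brightness, so the minimum intensity that the authors required was not used. Expression values had been assumed when the tests were laid out. All columns of the table belonged to a sample.

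Values were log2-transformed without a pseudocount. Of the probe sets, 1746 annotated to S. pombe, 213 array controls and 1 that matched several genes were not tested. The log2 ratios were fitted with limma 3.58.1 in R 4.3.3 with vessel position and generation as terms. A model with 4 group means gave the effect at each generation and its difference between generations. P-values were moderated, two-sided and adjusted over the 8968 probe sets by the Benjamini-Hochberg method. For 47 genes with several probe sets a single one was used. The fit over both generations, the calls at 5 generations and the methods' test were tested on simulated data. Plots used Python 3.11.15 and matplotlib 3.10.9.

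The 47 gene lists and 34 pairs were written from general knowledge, and the arrays compared, the lists and the rule for naming genes were chosen with earlier results of these data known. Among called genes that changed at least 2-fold at both generations, the rule took the 12 largest rises and falls. From the same genes it took the 10 highest and 10 lowest by the moderated statistic. It also took up to 5 members of each list by that statistic, both genes of each pair and genes for which the study's text gives a value. The strain markers and genes most alike and most unlike between generations were added. Lists are described by counts and medians with no test. Alternatives covered the covariate, the replicate number as a block, the fold minimum, quantile normalization, centring, the variance prior, array weights, a floor on low ratios, the probe sets tested, the methods' test on unpooled spreads and left-out arrays. The number of arrays limits the precision.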

Additional observations from a re-analysis of the deposited data

Results flagged for a closer look

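Within groups of 6 arrays, an array was singled out when its gap to the nearest other array exceeded Dixon's 95% limit as a share of the group's whole range, and chance flags about 1 in 20 groups. Of 486 groups of the named genes 16 met this, a smaller share than chance would flag. Each group held the arrays of both generations. The array was SMG 25 replicate 3 in 8 of them: lowest for ADH2 (gap 0.672 of the range), DHR2 (0.647), RPF1 (0.699) and STF1 (0.789), and highest for DSE4 (0.781), HXT1 (0.673), INA1 (0.657) and TSC10 (0.643). SMG 5 replicate 1 was lowest for ATG20 (0.657), PEX19 (0.631) and YMR084W (0.716) and highest for YOR338W (0.726), and SMG 25 replicate 1 was highest for LYS20 (0.646). Among the control arrays, replicate 3 of 25 generations was highest for ADE4 (0.661), replicate 1 of 5 generations lowest for BNR1 (0.656) and replicate 3 of 5 generations lowest for HXK1 (0.731).

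The LSMMG effect differed between the generations by limma's test of the difference for 5 of the named genes. The effect at 25 minus that at 5 generations was -1.66 for STP4, -1.22 for PFK27, which makes fructose-2,6-bisphosphate, -1.41 for AQR1, 1.28 for CSI2 and 1.31 for PRP43, with adjusted p of 0.012, 0.012, 0.029, 0.018 and 0.034. PFK27 was not called over both times (0.33 and -0.89).

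The control probe sets for ribosomal RNA, which were in no comparison, had median ratios of 103.8 and 96.9 on control replicates 1 and 2 of 25 generations. Their part in the results was not tested.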

How the results depend on the processing

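The counts of calls moved with the fold minimum: 4333 probe sets passed with no fold minimum (2385 higher, 1948 lower) and 2518 with 1.5-fold (1560 higher, 958 lower), against 1257 at 2-fold. At 5 generations 3001 passed without a fold minimum and 1869 without control replicates 1 and 2 of 5 generations, against 995, and at 25 generations 4122 passed without a fold minimum, against 1558. Differences between the generations passed for 15 probe sets, and for 9 with the replicate block, 198 after quantile normalization, 46 without control replicates 1 and 2 of 5 generations and 1 without those of 25 generations, the last chosen after seeing the data. The fits without control replicates 1 and 2 of a generation have 1 control array at that time. The causes were not tested. Leaving out 1 array at a time gave 1096 to 1434 called probe sets (675 to 934 higher and 421 to 500 lower), 758 to 1249 at 5 generations and 1376 to 1622 at 25 generations. Without control replicates 1 and 2 of 25 generations 1243 were called, and without those of both generations 1822, both chosen after seeing the data. Without control replicates 1 and 2 of 5 generations 1659 were called. The other alternatives gave between 1184, with the methods' test, and 1399, with array weights.

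The replicate numbers were not taken to pair the arrays: of 18 pairs with the same number in different groups, 5 correlated above 0.1 after the group means were removed (-0.278 to 0.490). The 3 pairs of control arrays across generations were among these (0.103, 0.312 and 0.490), but of the 12 pairs of a control with an LSMMG array only 1 was (0.191). The fit with the number as a block called 1257 probe sets (792 higher, 465 lower), 1255 of them shared.

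The 243 genes named, many chosen for a large statistic, were recomputed under 28 alternatives each, 6804 values. Of these 6750 kept direction and side of the threshold, 38 no longer passed, 16 newly passed and 0 reversed, with 229 genes on the same side throughout. The threshold here was the adjusted p alone, so both fold settings repeat the main fit and test nothing. The covariate, group means, block, prior, probe sets tested and methods' test left the log2 fold changes as in the main fit (median 0.1358 in each). Those settings test the threshold and not the direction. Of 1316 list medians under the alternatives, 109 moved, and 10 changed sign, in the lists of sterol synthesis, secretory coats, histones and the vacuolar proton pump, all with medians near 0. The 1316 include the settings with unchanged log2 fold changes, under which a list median stays the same by construction. The share that moved is therefore no measure of stability. The shares of promoters with known motifs were not computed, since promoter sequences were not used here. Ratios carry no signal level, so weakly expressed genes could not be told from strong ones.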

Other observations

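By chromosome, the median log2 fold change of the named genes ran from -0.00 on chromosome VIII (261 genes) to 0.30 on chromosome IX (191 genes), beside 0.14 over all genes. These are medians over genes, which are not independent, and no test was made.

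Genes of the secretory pathway and of the vacuolar proton pump showed little common movement. Of 31 genes of vesicle coats and the exocyst 9 were higher and 11 lower, with a median of -0.01: the surface SNAREs SNC1 and SSO1 rose by 0.68 and 0.55, and the coat subunits SEC23 and SEC21 changed by -0.77 and -0.60 (adjusted p = 1.1e-04, 1.2e-04, 4.3e-05 and 2.9e-05). Of 17 genes of the proton pump 3 were higher, 5 lower and 9 did not pass, with a median of -0.04: VMA5, a stalk subunit, changed by -0.79 and STV1, the Golgi form of the membrane subunit, by -0.67, while VMA21, which assembles the pump, rose by 0.42 (adjusted p = 1.1e-04, 5.6e-04 and 0.0011).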
